A study of Danio rerio with 6 samples.

Results

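The regions described here are stretches of zebrafish chromatin that were called open in all 3 libraries of GFPminus nuclei and in none of the 3 libraries of GFPplus nuclei. They are called GFPminus-only regions below. Merging all peaks of the 6 deposited lists wherever they shared 1 bp or more gave 187225 union regions, and 1594 of these, 0.851%, had a peak in 3 of 3 GFPminus lists and in 0 of 3 GFPplus lists. The peak calls themselves chose these regions, so their number, width and strength are given as descriptions without a test. All nuclei came from Tg(fli1a:egfp) embryos at 24 hours post fertilization. Nuclei were sorted by fluorescence into a GFPminus fraction (3 libraries), labelled non-endothelial, and a GFPplus fraction (3 libraries), labelled endothelial, with 20000 nuclei per library. Both fractions carry the transgene. The series' design text describes the libraries of each fraction as biological triplicates from 3 separate isolations.

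ATAC-seq, the assay used, inserts sequencing adapters with a transposase wherever DNA is not protected by nucleosomes, so that promoters, enhancers and other occupied regulatory elements appear as peaks. Promoters of widely used genes tend to be open in most cell types, whereas distal enhancers tend to be open in few. In Tg(fli1a:egfp) fish, regulatory sequence of fli1a, which encodes an ETS transcription factor, drives GFP in endothelial cells and, as background knowledge, also in some blood and neural-crest-derived cells. The GFPminus fraction is therefore a mixture of the remaining tissues of the embryo, such as brain, muscle, notochord and skin. An element open in a small part of that mixture contributes little to its signal, and a peak list cannot separate a weakly open element of many cells from a widely open one of few cells. Cell type markers could not be checked, because the lists are in build Zv9 and no gene annotation of that build was used. The regions are named by position (Zv9, 1-based) and not by gene, and no sequence is shown.

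The 6 lists differ in length, and 1 of them decides much of what can be a GFPminus-only region. GFPminus replicates 1, 2 and 3 held 113476, 110663 and 33437 peaks, and GFPplus replicates 1, 2 and 3 held 72695, 73716 and 50396. The short list of GFPminus replicate 3 stands apart from the other GFPminus lists. Of the 14181 regions called in 2 GFPminus lists and no GFPplus list, 13402 lacked the call in GFPminus replicate 3, against 387 that lacked it in replicate 1 and 392 in replicate 2. When peaks were merged again without GFPminus replicate 3, 15013 regions met the rule in place of 1594. Read depth is unknown from a peak list, and the lack of a call does not mean that no reads were there.

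The 1594 regions were of moderate width. Their median width was 392 bp (quartiles 314 and 486, range 160 to 1537 bp). The 20275 regions called in all 6 lists, called shared regions below, had a median of 589 bp, and the 2285 GFPplus-only regions had a median of 353 bp. Regions with 3 GFPminus calls had medians of 424 bp with 1 GFPplus call and 462 bp with 2. Merging of more lists widens a region, so single peaks were compared as well. The strongest peak of a GFPminus-only region had a median width of 292, 276 and 216 bp in GFPminus replicates 1, 2 and 3, which averages 262 ± 39.8 bp (SD, n = 3 libraries). The median over all peaks of these lists was 205, 199 and 275 bp. Peaks in GFPminus-only regions were thus wider than the typical peak of GFPminus replicates 1 and 2, and narrower than that of replicate 3. Between the 60th and 80th percentile of −log10 p in GFPminus replicate 1, the median peak width was 302 bp for the 558 GFPminus-only regions, 337 bp for the 3705 shared regions and 246 bp for the whole list. In the same range of GFPminus replicate 2 these medians were 289, 331 and 239 bp. In replicate 3 the 147 GFPminus-only regions of this range had narrower peaks than its list (294 against 335 bp). Up to its 20th percentile lay 609 of the regions, with wider peaks than the list (195 against 182 bp). From there to the 40th percentile its 480 regions were near the list (209.5 against 212 bp). Its 339 regions from the 40th to the 60th percentile were narrower (228 against 248 bp). Above the 80th percentile GFPminus-only regions were narrower than the list in all 3 replicates (384 against 419 bp, 368 against 407 bp and 357 against 456 bp in replicates 1, 2 and 3). Only 19 regions of replicate 3 lay there.

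Most of these regions were a single peak in each list. More than 1 peak was found in 45 regions (2.82%) in GFPminus replicate 1, in 56 (3.51%) in replicate 2 and in 10 (0.627%) in replicate 3. Only 30 regions (1.88%) were wider than 800 bp, against 22.3% of shared regions. The widest lay on chromosome 7 at 37339351 to 37340887, a span of 1537 bp covered by a peak of 1498 bp in GFPminus replicate 1 but by peaks of 729 and 370 bp at its strongest point in replicates 2 and 3. The next was on chromosome 5 at 52238023 to 52239184 (1162 bp), and the third again on chromosome 7, at 48377100 to 48378246 (1147 bp). The position of the summit, the point of highest signal, varied moderately between libraries. The summits of the 3 GFPminus lists lay within a median span of 100 bp (quartiles 61 and 168), compared with 75 bp in shared regions. In regions with 3 GFPminus calls the span was similar, 97 bp with 1 GFPplus call and 91 bp with 2. A span of 50 bp or less was found for 293 GFPminus-only regions (18.4%) and for 31.3% of shared regions. With 3 GFPminus calls the share was 21.1% with 1 GFPplus call and 23.5% with 2.

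Strength was described by the percentile of −log10 p within each library's own list, since the scores of different lists cannot be set against each other. A percentile also depends on the length of its list, so percentiles of the short and the long lists are not like for like. The median percentile of GFPminus-only regions was 69.5 in GFPminus replicate 1, 66.8 in replicate 2 and 28.1 in replicate 3. In the 2 long lists these regions were in the upper middle, and in the short list they were among the weaker peaks. The plot of percentiles shows this contrast, with most regions between the 60th and 90th percentile in replicates 1 and 2, and 296 of 1594 (18.6%) in the lowest 10% of replicate 3. The upper 10% of the list held 113 of the regions in replicate 1, 93 in replicate 2 and 2 in replicate 3, and no region reached the upper 1% of any list. Fold enrichment at the summit, the authors' value relative to the background of the same library, had medians of 5.03, 4.83 and 4.59 in replicates 1, 2 and 3, against 4.31, 4.24 and 5.42 over all peaks of those lists.

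**Figure D1:**
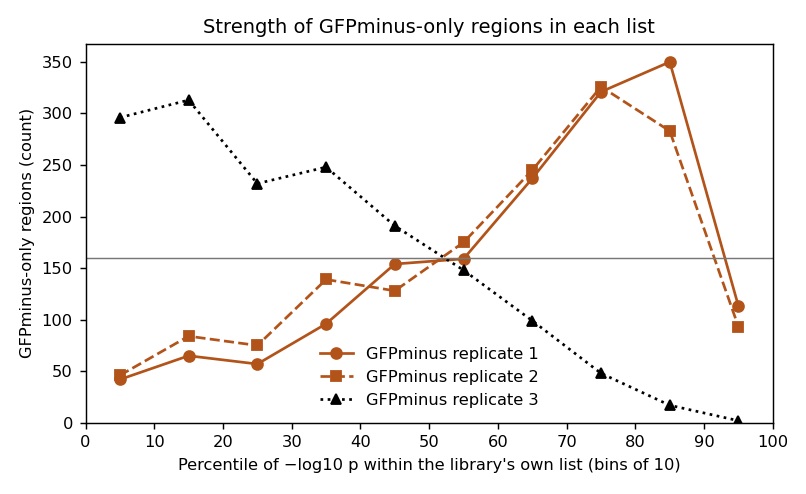
Number of GFPminus-only regions (y axis) in each bin of 10 percentiles of −log10 p within a library's own peak list (x axis), for the 3 GFPminus libraries; the grey line marks an even spread over the bins. Replicates 1 and 2 have their highest counts (350 and 326 regions) between the 70th and 90th percentile, whereas replicate 3 has 296 and 313 regions in its 2 lowest bins.

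GFPminus replicate 3, the shortest list, gave the lowest percentile for 1305 of the 1594 regions (81.9%), a count taken across lists of unlike length. The order of strength among the regions was shared best by the long lists. Over the 1594 regions, Spearman's rho of −log10 p was 0.68 between replicates 1 and 2, 0.39 between 1 and 3, and 0.38 between 2 and 3. Over the 20275 shared regions it was 0.88, 0.74 and 0.74. Regions are not independent replicates, and the narrower range of the GFPminus-only regions is itself set by the rule, so these values only describe the lists.

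Regions were ordered by the lowest −log10 p among the 3 GFPminus lists, which came from replicate 3 for 1110 of the 1594 (69.6%). The order therefore leans on that short list. The strongest region was the one on chromosome 16 at 2493846 to 2494148. It had fold values of 16.3, 12.6 and 13.8 in GFPminus replicates 1, 2 and 3, at percentiles 97.1, 94.5 and 93.9, and its 3 summits lay within 31 bp. It stood alone, with the nearest other GFPminus-only region 1565399 bp away and the nearest GFPplus peak 6420 bp away. On chromosome 9 at 26818407 to 26818980 the fold was 6.39, 6.95 and 6.33 in GFPminus replicates 1, 2 and 3, and the −log10 p was 42.8, 43.5 and 18.5. This region lay only 273 bp from a shared region and 360 bp from a GFPplus peak. On chromosome 5 at 56948202 to 56948874 the fold was 10.5, 9.67 and 8.43. That region was 149560 bp from a shared region but only 583 bp from a GFPplus peak.

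Among the 10 strongest regions there were also a second one on chromosome 5, at 46111236 to 46111713 (fold 8.08, 7.98 and 6.32), and one on chromosome 6 at 57608488 to 57609278 (fold 7.12, 9.19 and 8.39). On chromosome 19 a region at 1144130 to 1144441 was only 312 bp wide and had fold values of 12.2, 8.47 and 9.24, with summits within 9 bp. The 4 others lay on chromosomes 15 (38211234 to 38211909), 19 (41228540 to 41229051) and 20 (48847078 to 48847504 and 39984878 to 39985669). In the order of replicates 1, 2 and 3, the fold was 6.44, 7.18 and 7.65 for the region on chromosome 15, and 8.70, 8.48 and 8.59 for the one on chromosome 19.

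The edge of the rule was soft. The regions just inside it had their weakest peak at the lower limit of GFPminus replicate 3, with a −log10 q of 1.304 on chromosome 6 (2807392 to 2807907) and of 1.34 on chromosome 12 (23701631 to 23701978) and chromosome 20 (55061106 to 55061657). In those 3 regions replicates 1 and 2 lay at percentiles between 51.0 and 73.7. In 102 regions (6.40%) the lowest −log10 q was under 2. Just outside were 2328 regions with 3 GFPminus calls and 1 GFPplus call. The weakest of these GFPplus calls had a −log10 q of 1.304 in GFPplus replicate 3 on chromosome 11 (10820607 to 10820911), 1.34 in GFPplus replicate 1 on chromosome 7 (76947735 to 76948199) and 1.37 in GFPplus replicate 2 on chromosome 24 (36559495 to 36559836). In 1316 of the 2328 regions the single GFPplus call came from replicate 2, in 779 from replicate 1 and in 233 from replicate 3. The lists of GFPplus replicates 1 and 2 were of similar length (72695 and 73716 peaks), and the cause was not tested. The median −log10 q of these GFPplus calls was 4.37, so a region could be left out by a peak well above the limit.

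Lists that took no part in choosing regions were examined next. The lists numbered 1, 2 and 3 were held out in turn, and GFPminus-only regions were chosen from the other 4 lists alone. With both lists numbered 1 held out, 2872 regions met the rule, of which 83.1% had a peak in GFPminus replicate 1 and 30.8% in GFPplus replicate 1. Over all 141913 regions of those 4 lists the shares were 53.2% and 41.0%. With the lists numbered 2 held out, 84.4% of 3411 regions had a peak in GFPminus replicate 2 and 42.1% in GFPplus replicate 2, where all 144463 regions gave 51.2% and 39.9%. With the lists numbered 3 held out, 11.4% of 16139 regions had a peak in GFPminus replicate 3 and 6.98% in GFPplus replicate 3, where all 181402 regions gave 17.2% and 23.8%.

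In each case the held-out GFPminus list called more of the regions than the held-out GFPplus list. Against all regions, however, the pattern differed between the lists. In GFPminus replicates 1 and 2 the share of GFPminus-only regions with a peak was above that of all regions, and in GFPminus replicate 3 it was below. In GFPplus replicates 1 and 3 it was below that of all regions, and in GFPplus replicate 2 it was slightly above. All regions include those called in 1 list only, while GFPminus-only regions here had 2 GFPminus calls. A share above all regions in a GFPminus list was therefore likely in advance. GFPplus-only regions, chosen from the same 4 lists, had a peak in GFPminus replicates 1, 2 and 3 in 32.3, 28.4 and 3.14% of cases. In GFPplus replicates 1, 2 and 3 these shares were 83.5, 57.4 and 55.7%. The 3 cases share libraries and the lists differ in length, so no test was made of these shares.

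Chromosome 7 held more GFPminus-only regions than its part of the union regions. Of the 1594 regions, 1563 lay on the 25 numbered chromosomes and 31 on unplaced sequences. Chromosome 7 had 118 of the 1563, or 7.55% (exact Clopper-Pearson 95% interval 6.29 to 8.97%), while it had 10567 of 180773 union regions, or 5.85%. The ratio of these shares was 1.29, the highest of the 25 chromosomes, and 118 is 26.6 regions more than the union share gives. The interval covers counting error only, treats regions as independent, and belongs to a chromosome singled out for its value. Chromosome 13 had nearly the same ratio, 1.28 (84 regions), followed by chromosome 24 (1.24, 61 regions) and chromosome 18 (1.24, 81 regions). Chromosomes 7 and 13 were the 2 whose interval lay above 1. Chromosome 12 was the 1 whose interval lay below it, with 33 regions and a ratio of 0.592. All 25 intervals cover counting error only, treat regions as independent and are not adjusted for their number. They are descriptions and not tests. The plot by chromosome places the excess at the upper end of a spread that runs over all chromosomes.

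**Figure D2:**
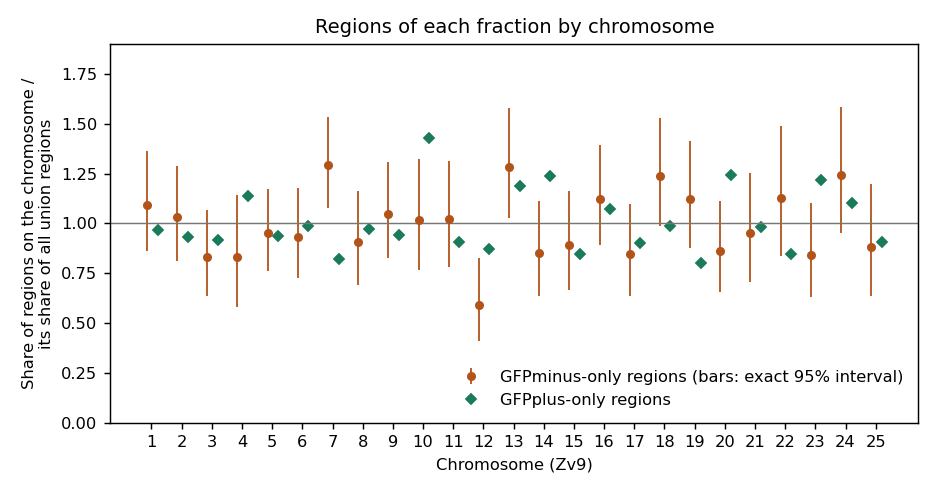
Share of the regions on each numbered chromosome (x axis) divided by the chromosome's share of all union regions (y axis), for GFPminus-only regions with their exact 95% interval and for GFPplus-only regions; the grey line marks 1. Chromosome 7 has the highest GFPminus-only ratio, 1.29, and a GFPplus-only ratio of 0.821, and chromosome 12 has the lowest GFPminus-only ratio, 0.592.

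The place of chromosome 7 in this order depended on what it was measured against. Relative to the regions called in all 3 GFPminus lists its ratio was 1.26, behind chromosomes 18 (1.32) and 24 (1.28). Relative to shared regions it was 1.31, behind chromosome 18 (1.39). Per Mb between the first and the last union region of the chromosome it had 1.53 GFPminus-only regions, behind chromosomes 18 (1.62) and 13 (1.55) and above the 1.15 of the numbered chromosomes together. Chromosomes 7, 13, 18 and 24 had different shares of the GFPplus-only regions, a difference that was not tested. The GFPplus-only ratio was 0.821 on chromosome 7, while it was 1.19, 0.986 and 1.10 on chromosomes 13, 18 and 24.

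Along chromosome 7 the regions were found in every stretch of 10 Mb. The stretch from 30 to 40 Mb had 28 regions, 1.78% of its union regions, and the stretches from 40 to 50 and 50 to 60 Mb had 16 (1.25%) and 18 (1.47%). The stretch from 10 to 20 Mb had 19 (1.296%), and that from 20 to 30 Mb had 13 (0.862%), near the 0.851% of the genome. The 2 ends had the lowest numbers relative to union regions, with 8 in the first 10 Mb (0.657%), and 7 and 9 in the last 2 stretches, from 60 Mb on (0.722% and 0.677%). Regions on chromosome 7 differed little from the others in form: their median width was 400 bp against 391 bp on the other numbered chromosomes, and their median percentiles in GFPminus replicates 1, 2 and 3 were 73.7, 69.6 and 29.2 against 69.0, 66.8 and 27.8. The strongest lay at 34407741 to 34408582, with fold values of 9.49, 8.76 and 7.74 and no GFPplus peak within 44814 bp. It was followed by regions at 41863049 to 41863566 (fold 8.21, 6.6 and 7.02), at 37339351 to 37340887, which is also the widest, at 12888337 to 12888813 (3.86, 4.16 and 4.47), and at 16722125 to 16722488 (8.27, 9.18 and 6.65).

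Peaks outside the fraction-only regions were then compared between the lists. Chromosome 7 had been singled out from these same lists. The 14181 regions called in 2 GFPminus lists and no GFPplus list stayed among these peaks. The comparison is therefore not independent of the choice of chromosome. Of the peaks on numbered chromosomes that lay outside GFPminus-only and GFPplus-only regions, chromosome 7 took 5.89, 5.87 and 5.86% in GFPminus replicates 1, 2 and 3, and 5.78, 5.78 and 5.64% in GFPplus replicates 1, 2 and 3. The 2 fractions did not overlap, and the means were 5.87 ± 0.018% and 5.73 ± 0.080% (SD, n = 3 each), a difference of 0.142 percentage points (exact two-sided permutation p = 0.1, the smallest that 3 against 3 libraries allow). Chromosome 17 also had all GFPminus lists above all GFPplus lists (2 of 25 chromosomes, 8%), and chromosome 10 had them all below (1 of 25, 4%). By the ratio of the GFPminus to the GFPplus mean, 1.025, chromosome 7 was number 6 of 25, behind chromosomes 17, 14, 6, 9 and 19. Without GFPminus replicate 3 the difference on chromosome 7 was 0.067 percentage points (exact permutation p = 0.4), and without GFPplus replicate 3 it was 0.090 (exact permutation p = 0.1).

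The strength of shared regions on chromosome 7, again a chromosome singled out from these same lists, was compared next. The shared regions were ranked by −log10 p within each list, and the same 20275 regions were ranked in every list. List length thus does not change the number ranked, but the short lists limit which regions are shared. The 1136 shared regions of chromosome 7 had median ranks at percentiles 50.9, 51.3 and 49.4 in GFPminus replicates 1, 2 and 3, and 47.0, 48.0 and 45.7 in GFPplus replicates 1, 2 and 3. The fractions did not overlap, and the difference of 3.65 percentile points between the means, 50.6 ± 1.004 and 46.9 ± 1.14 (SD, n = 3 each), was the largest of the 25 chromosomes (exact two-sided permutation p = 0.1, the smallest possible). All GFPminus lists were above all GFPplus lists on 3 of 25 chromosomes (12%), namely 7, 10 and 13, and below all GFPplus lists on 4 of 25 (16%), namely 3, 11, 12 and 21. Taken region by region the difference on chromosome 7 was small, with a median of 0.095 percentile points and 50.3% of its shared regions above 0, against −1.08 and 45.7% over all shared regions. Leaving out the shared regions within 10 kb of a GFPminus-only region, a check added after the data had been seen, the difference of the medians on chromosome 7 was 2.77 (exact permutation p = 0.1), while the median region by region turned to −0.10, with 49.5% above 0. The 3 tests of this kind, counting the one on neighbours below, have an adjusted p of 0.1 each (Benjamini-Hochberg, exact permutation tests). This adjustment covers the 3 tests only and not the choice of chromosome 7 among the 25.

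Most GFPminus-only regions lay more than 10 kb from a shared region. The gap to the nearest shared region had a median of 23485 bp (quartiles 8332 and 56219) over the 1581 regions with a shared region on the same sequence. It was 17181 bp for GFPplus-only regions, and 13962 bp from a shared region to the next. Within 10 kb of a shared region lay 452 GFPminus-only regions, 28.4% (exact Clopper-Pearson 95% interval 26.2 to 30.6%, counting error only), against 34.2% of GFPplus-only regions and 39.5% of shared regions. Among regions with 3 GFPminus calls, the gap was smaller in classes with more GFPplus calls. With 1 GFPplus call the median was 19155 bp and with 2 it was 15536 bp. Regions called in 2 GFPminus lists and no GFPplus list had a median of 24552 bp, close to that of the GFPminus-only regions, as the plot of distances shows. No test was made, because the calls that define each class also define the regions it is measured against.

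**Figure D3:**
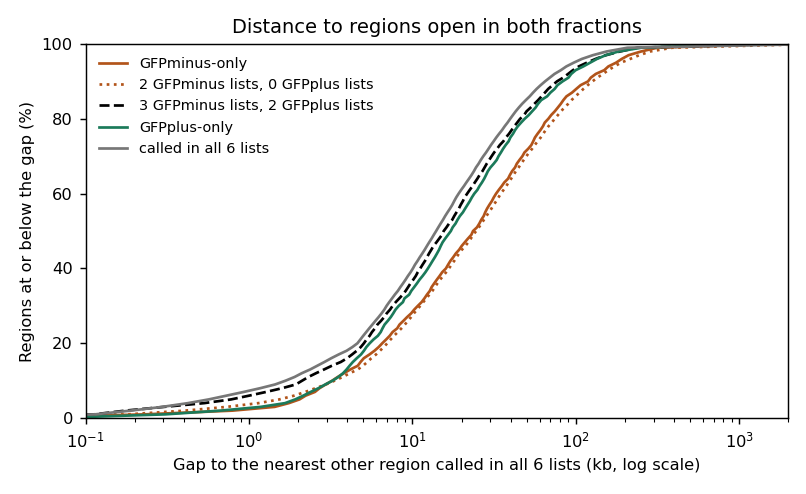
Cumulative percent of regions (y axis) by the gap to the nearest other shared region (x axis, kb, log scale), for GFPminus-only regions and for 4 other classes of union regions. The GFPminus-only curve lies to the right, with a median gap of 23485 bp, and runs close to that of regions called in 2 GFPminus lists and no GFPplus list, while shared regions have the smallest gaps, with a median of 13962 bp.

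The nearest ones almost touched a shared region. The smallest gaps were 24 bp on chromosome 11 (26613972 to 26614393), 62 bp on chromosome 23 (19442471 to 19442681) and 68 bp on chromosome 13 (31620216 to 31620509), and 37 regions (2.32%) lay within 1 kb. The most remote ones were on chromosome 4, at 54041655 to 54041821 and at 44295448 to 44295924, the second with a gap of 752878 bp, and on chromosome 10 at 24293556 to 24294080 with a gap of 508250 bp. The first of these was 1571913 bp from a shared region, the longest gap of all. Regions 1 to 5 kb from a shared region had median percentiles of 75.5, 73.8 and 37.0 in GFPminus replicates 1, 2 and 3. For the 194 regions more than 100 kb away these were 61.4, 57.1 and 26.1, lower in all 3 lists than at 1 to 5 kb. Within 1 kb they were 72.8, 70.2 and 26.7, so in replicate 3 the 2 extremes of distance were close. Replicate 3 had its lowest median, 24.5, at 50 to 100 kb. Median width showed no steady order with distance (377 bp at 1 to 5 kb, 410 bp at 25 to 50 kb and 371 bp beyond 100 kb).

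Distance to the nearest GFPplus peak of any kind is at most about that to a shared region, since each shared region holds GFPplus peaks. The gap to the nearest GFPplus peak had a median of 4180 bp, and 222 GFPminus-only regions (13.9%) had a GFPplus peak within 1 kb. In 72 regions (4.52%) the gap was 200 bp or less. GFPplus-only regions had similar shares, with a GFPminus peak within 1 kb for 17.0% and within 200 bp for 4.03%. Their median gap to a GFPminus peak was 2908.5 bp. The GFPminus lists together hold more peaks than the GFPplus lists, which by itself shortens such a gap and raises such a share. The smallest gap of a GFPminus-only region was 1 bp, on chromosome 6 at 31347064 to 31347322. Next came 9 bp on chromosome 21 at 10720906 to 10721155 and 16 bp on chromosome 19 at 2164560 to 2164919. Such regions count as GFPminus-only since no GFPplus peak overlapped them. Whether the neighbouring peaks mark the same element was not tested. Without the 222 regions, 1372 remained.

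Most GFPminus-only regions had no other GFPminus-only region within 10 kb. Another one lay within that distance for 97 of them (6.09%). Of the GFPplus-only regions, 12.3% had another of their own kind within 10 kb. There are more of those (2285 against 1594), which by itself raises such a share. The share that an even spread over the genome would give is not given here, so neither value shows isolation or clustering. A GFPplus-only region lay within 10 kb of 68 GFPminus-only regions (4.27%). Joined across gaps of up to 10 kb, 1497 regions formed no run, 82 formed 41 pairs and 15 formed 5 runs of 3. These runs were on chromosome 2 (29425406 to 29437669 and 59759464 to 59770706), chromosome 4 (5607585 to 5621803), chromosome 24 (20273891 to 20286577) and 1 unplaced scaffold, and each was 11243 to 14219 bp long. In windows of 100 kb, the chromosome 2 window at 29400001 to 29500000 held 6 of them, more than any other. Its 6 regions were 315 to 599 bp wide, and the nearest shared region was at least 122739 bp away. Their median percentiles were 69.7, 29.3 and 23.8 in replicates 1, 2 and 3, against 69.5, 66.8 and 28.1 over all GFPminus-only regions. Next came 5 windows with 4 regions each, of which only 4 are named here. These were on chromosomes 9 (38700001 to 38800000), 1 (30700001 to 30800000), 25 (35100001 to 35200000) and 14 (33500001 to 33600000). The chromosome 1 window had 3 shared regions and the chromosome 14 window 5, and the other 2 named windows had none.

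Shared regions beside GFPminus-only regions ranked higher in each GFPminus library than in any GFPplus library. Their peaks lie outside the GFPminus-only regions, but the 2 kinds are not fully independent. Both come from calls in the same lists, and the extent of a shared region decides which nearby peaks stay separate from it. The 438 shared regions that were nearest to a GFPminus-only region and within 10 kb of it had median ranks at percentiles 58.0, 56.7 and 46.4 of all shared regions in GFPminus replicates 1, 2 and 3, and 39.5, 39.9 and 39.7 in GFPplus replicates 1, 2 and 3. The 3 GFPminus libraries were above the 3 GFPplus libraries without overlap, although replicate 3 was nearer to the GFPplus libraries than to the other GFPminus libraries. The means were 53.7 ± 6.41 and 39.7 ± 0.24 (SD, n = 3 each), a difference of 14.0 percentile points that exceeded the spread of either fraction (exact two-sided permutation p = 0.1, the smallest possible). For the 740 shared regions nearest to a GFPplus-only region the means were 50.02 ± 0.93 and 54.0 ± 2.24, a difference of −3.99. There too the fractions did not overlap, with GFPminus libraries between 49.2 and 51.1 and GFPplus libraries between 51.5 and 55.7. For the 18804 shared regions within 10 kb of neither kind the means were 49.9 ± 0.19 and 50.1 ± 0.058, a difference of −0.203. Merged without GFPminus replicate 3, which brings in many more regions, the difference was 4.55 (exact permutation p = 0.1). Within 5 kb in place of 10 kb it was 10.2, and the fractions then overlapped (exact permutation p = 0.3).

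**Figure D4:**
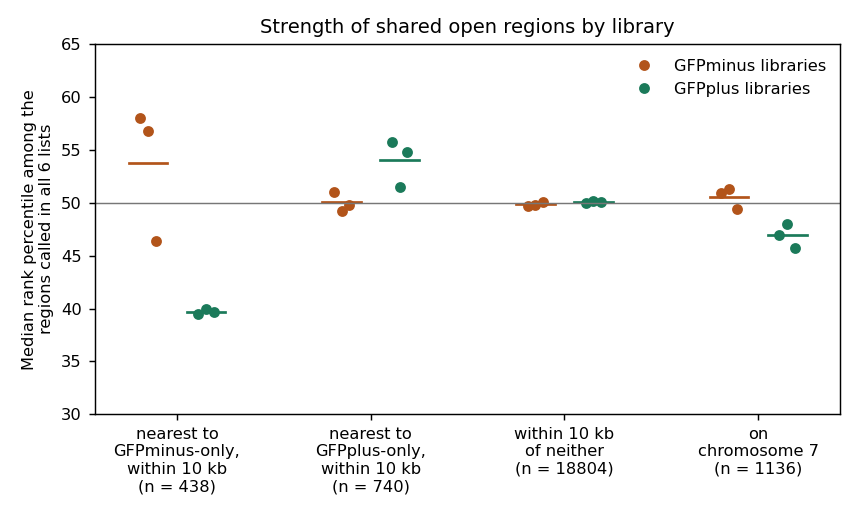
Median rank percentile of shared regions among all 20275 shared regions (y axis, not starting at 0) in each library (points, with the mean of 3 libraries as a line), for shared regions beside GFPminus-only regions, beside GFPplus-only regions, beside neither, and on chromosome 7. Beside GFPminus-only regions the GFPminus libraries lie between 46.4 and 58.0 and the GFPplus libraries between 39.5 and 39.9.

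The shift was not found in every one of these shared regions. Of the 438, 124 (28.3%) ranked higher in all 3 GFPminus lists than in all 3 GFPplus lists, against 12.5% of all shared regions, and 40 (9.13%) ranked lower in all 3, against 12.6%. The mean rank in GFPminus lists was above that in GFPplus lists for 269 (61.4%), against 45.7% of all shared regions. The median difference taken region by region was 6.11 percentile points, against −1.08 over all shared regions. It was 9.56 for the 39 shared regions within 1 kb of a GFPminus-only region, 6.32 for the 297 at 5 to 10 kb, 3.998 for the 830 at 10 to 25 kb and 0.814 for the 1220 at 25 to 50 kb. Beyond 100 kb it was −1.78. The order was not even, since the 234 shared regions at 1 to 5 kb had 3.20. By distance to GFPplus-only regions the same difference ran from −6.64 within 1 kb to −0.931 beyond 100 kb.

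**Figure D5:**
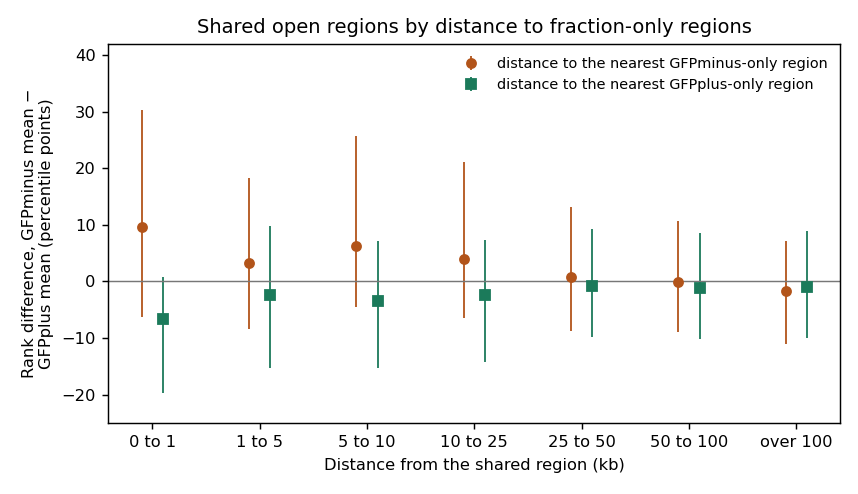
Difference in rank percentile of shared regions between the mean of the GFPminus lists and the mean of the GFPplus lists (y axis, median with quartiles as bars) by distance from the nearest GFPminus-only or GFPplus-only region (x axis, kb). The medians beside GFPminus-only regions are above 0 up to 25 to 50 kb (9.56 within 1 kb, 0.814 at 25 to 50 kb), and the quartiles are wide at every distance.

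Single loci show how mixed this was. The region on chromosome 9 at 26818407 to 26818980 has its shared neighbour 273 bp away, at 26819254 to 26819866. That neighbour ranked at percentiles 81.9, 81.7 and 80.6 in GFPminus replicates 1, 2 and 3, and at 31.5, 41.0 and 23.6 in GFPplus replicates 1, 2 and 3. The shared neighbour of the chromosome 19 region at 1144130 to 1144441 was 44698 bp away, beyond the 10 kb limit. That neighbour ranked at 62.3, 62.1 and 64.6 in GFPminus lists, and at 5.09, 1.51 and 5.70 in GFPplus lists. Beside the chromosome 6 region at 57608488 to 57609278 the ranks were 90.8, 94.1 and 92.1 in GFPminus lists, and 62.2, 85.2 and 62.9 in GFPplus lists. The neighbour of the chromosome 5 region at 46111236 to 46111713, 3536 bp away, went the other way, with 85.5, 92.7 and 92.2 in GFPminus lists and 93.8, 93.0 and 94.8 in GFPplus lists. The shared region nearest to the strongest GFPminus-only region of all, on chromosome 16, was 11399 bp away, also beyond 10 kb. This shared region was weak in both fractions, with mean ranks of 13.0 in GFPminus and 14.5 in GFPplus lists.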

How the data were processed

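ATAC-seq was run on sorted nuclei, with 1 peak list per library (6 libraries, 454383 peaks). Per the submitters' processing notes, the tools were MACS2, deepTools, Bowtie2 2.1.0 and cutadapt 1.3, and the build was Zv9 (danRer7), with their settings not given in the sources used here. Per the file headers, each list is of 1 library, so peaks were not called on pooled reads. The authors deposited for each peak a fold enrichment (a ratio over the background of the library), a −log10 p, a −log10 q and a score. These were ranked or filtered within a list only, with 2 exceptions. The strongest regions are ordered by the lowest −log10 p of their 3 lists, and the edge of the rule is described by −log10 q taken across lists. Values of several lists printed side by side are otherwise not compared. The lowest deposited −log10 q was between 1.301 and 1.311 in every list.

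Union regions, ranks, gaps (bases between region ends) and exact permutation tests over libraries were computed with Python 3.11.15, numpy 2.4.6, pandas 2.3.3 and scipy 1.17.1. The code was tested on simulated lists. Percentiles are of −log10 p, and where a list had several peaks in a region the strongest was used. Named regions follow fixed rules: the 10 strongest, the 3 widest, the 5 strongest on chromosome 7, and the 3 at each extreme of distance or of the rule. Up to 5 of the densest windows were named as well, and a tie at the last place was cut. The members and rules were chosen with earlier results of these data known. No genes, motifs or sequences were analysed, because no genome or annotation of Zv9 was used here. Replicate numbers paired the libraries only in the replicate block and in the held-out lists, where lists of equal number were held out together. Alternatives were stricter thresholds, equal list length, other overlaps and distances, libraries left out and a replicate block.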

Additional observations from a re-analysis of the deposited data

How the results depend on the processing

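Alternatives were run for the count, peak width, list percentile, chromosome 7 ratio, share near a shared region and the 3 tested differences. The ratio stayed above 1 and the 3 differences above 0 in each of them. Comparisons between classes of regions, summit spans, runs and held-out lists had no alternative. The order of chromosomes changed with what it was measured against, as given above, but was not run again in these settings. The count of 1594 ranged from 1182 to 2171 over the settings that kept all libraries, and from 1825 to 15013 with 1 library left out, the highest without GFPminus replicate 3, while it was 2905 without GFPplus replicate 2. Fewer calls are required by construction there. The mean over GFPminus libraries of the median peak width was 262 bp. It was 358 bp with a −log10 q of at least 5, 373 bp with a fold of at least 5 and 353 bp with lists of equal length. With 1 library left out it ranged from 190 to 273 bp. The share within 10 kb of a shared region, 28.4%, was 22.4%, 21.5% and 25.3% in the same 3 settings, 15.7% within 5 kb, 71.0% within 50 kb, and 27.3 to 34.2% with 1 library left out. The cause was not tested, apart from the distances, where the change follows from the limit itself. The mean over GFPminus libraries of the median percentile, 54.8 over lists of unlike length, ranged from 43.6 to 57.7. The chromosome 7 ratio of 1.29 ranged from 1.12 (without GFPminus replicate 3) to 1.29 with 1 library left out and from 1.25 to 1.37 otherwise, the highest at equal length. The rank difference beside GFPminus-only regions was 4.55 to 16.7 with 1 library left out, and that on chromosome 7 was 2.77 to 3.996 (exact permutation p of 0.1 to 0.2 for both). The chromosome 7 difference in peak share, 0.142 percentage points, was 0.283 and 0.268 under the stricter −log10 q and fold (exact permutation p = 0.2 and 0.1) and 0.428 at equal length (exact permutation p = 0.1). With 3 against 3 libraries no test can pass 0.05, so a kept direction is all these alternatives show.

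Deviations of same-numbered libraries were correlated at −0.012, 0.020 and 0.011, and those of differently numbered libraries at −0.043 to 0.035. Such values cannot tell whether equal numbers mark the same isolation, which the sources used here do not state. The tests outside the replicate block therefore did not use the numbers as pairs. Lists held out together did share a number, and other combinations were not run. With the replicate block the count stayed 1594 by construction, and the differences of 14.0, 3.65 and 0.142 each gave an exact permutation p = 0.25, the smallest that 3 pairs allow. The block could not be applied to width, percentile, ratio or distance, which come from no test, and summits widened by 100 bp have a fixed width. The read depth of the libraries is not known from the lists, and a peak missing from a list does not show closed chromatin.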
